A study of Mus musculus with 12 samples.

Results

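The response of macrophages to IL-4 inside dense collagen was read from 4 of the 12 RNA sequencing libraries of the study, the 2 untreated and the 2 IL-4 libraries of gels with 7 mg/ml collagen. These high-collagen libraries were chosen by their labels alone, and no measured value entered the choice. The cells were bone marrow-derived macrophages (BMDMs), primary macrophages grown in culture from the marrow of wild-type C57BL/6J mice (C57BL/6 in the strain label), and all of them, treated or not, had been differentiated in medium conditioned by L929 cells, a source of the growth factor CSF1. They were embedded in gels of rat tail type I collagen and either left untreated or given recombinant murine IL-4 at 20 ng/ml. The labels give 24 h of culture, and the extraction protocol gives 16 to 28 h of stimulation for gels. The other 8 libraries held the same kind of cells in low-collagen gels (2 mg/ml) or on tissue culture (TC) plates. Both substrates were used with and without IL-4, with 2 libraries per condition. Apart from an alternative fit, the TC libraries were used only to compare substrates. The low-collagen libraries were also part of the gel fit and of the rescaling. They thus contributed to the estimate of spread behind the calls for IL-4 in high-collagen gels. The labels do not say whether the 2 libraries of a condition came from separate mice or cultures, so every p-value measures only the spread between these libraries, which may be technical.

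IL-4 is a cytokine of type 2 immunity, made by T helper cells, eosinophils, basophils and mast cells during worm infection, allergy and tissue repair. It binds the receptor chain IL-4Rα paired with the common γ chain or with IL-13Rα1, the kinases bound to these chains phosphorylate STAT6, and STAT6 enters the nucleus and binds DNA at palindromic sites. In macrophages the outcome is called alternative activation. Its textbook marks are arginase 1, the secreted proteins RELMα (also called FIZZ1, gene Retnla) and Ym1 (gene Chil3), lectin receptors and chemokines of type 2 inflammation.

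Levels are given in TPM, a share of all transcripts in the library that is corrected for transcript length. TPM carry no information on sequencing depth, so how many reads stand behind a value is unknown. In the 4 high-collagen libraries 11735 to 11883 genes reached 1 TPM, and replicates correlated at 0.98 on the log2(TPM + 1) scale in both conditions. All 11 macrophage markers looked at were present in every library, led by Lyz2 (lysozyme) at 48877 and 48901 TPM without and 32786 and 30936 TPM with IL-4. Tyrobp, a signalling adaptor of myeloid receptors, was at 2969 and 3043 TPM without and 3281 and 3129 TPM with IL-4, and Csf1r, the CSF1 receptor, at 1929 and 1779 TPM without and 1445 and 1316 TPM with IL-4. Of 9 mast cell and basophil markers 5 were listed at 0 in all 4 libraries and the sum was at most 0.205 TPM. The 8 eosinophil markers summed to at most 3.31 TPM, with Prg2 and Epx, the defining granule proteins, listed at 0, and the 8 dendritic cell markers to at most 2.04 TPM.

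Differences were tested with limma on log2(TPM + 1) over 11852 genes, with 1 mean for each of the 4 gel conditions, and a gene was called at a Benjamini-Hochberg adjusted p-value under 0.2. For 2 libraries against 2, the smallest two-sided p-value of an exact permutation test is 0.33, so all calls depend on limma's pooling of the spread over genes. A change on this scale understates that of genes with few transcripts. IL-4 in high-collagen gels was called for 4064 genes, of which 1366 were higher (11.5% of those tested) and 2698 lower (22.8%). The count fell to 2469 without the first IL-4 library and to 2608 without the first untreated library. How many genes went each way turned on the scaling. As deposited, the median of all genes lay at -0.10 on the log2 scale, and the 10 most abundant genes took 17.5% and 17.8% of the TPM without IL-4 against 14.8% in both IL-4 libraries. After median-ratio rescaling, which divides a library by the median of its gene-wise ratios to the average gel library, the median was -0.01, and 1989 genes were called higher (16.8%) and 1766 lower (14.9%). The 2 scalings called 3131 genes in the same direction and 0 in opposite directions. Of these, 1365 were higher (11.5%) and 1766 lower (14.9%), and these calls in both scalings are what rose and fell mean in what follows. Both shares are the background for each count of list members below. The 932 genes called lower only as deposited, and the 624 called higher only after rescaling, are given no direction.

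**Figure D1:**
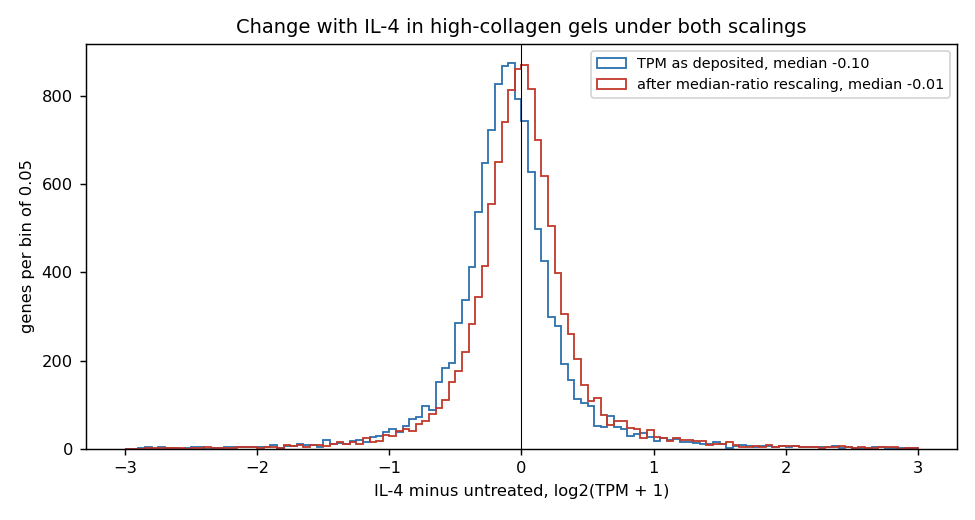
Number of genes (y axis, bins of 0.05) by their change with IL-4 in high-collagen gels (x axis, log2(TPM + 1), IL-4 minus untreated), for TPM as deposited and after median-ratio rescaling. The 2 curves are shifted against each other, with medians of -0.10 and -0.01, and genes beyond 3 in either direction are not drawn.

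Rises reached further than falls. Among genes called in both scalings, 286 were at least 2-fold higher and 246 at least 2-fold lower, 92 were at least 4-fold higher and 29 at least 4-fold lower, and 41 were at least 8-fold higher against 2 that were at least 8-fold lower. These 2 were Cx3cr1 and Ighj1, and Ighj1 passed the filter on mean TPM through the untreated high-collagen libraries alone. Large rises such as those of Retnla, Rnase2a, Tmem26 and Cldn11 passed it through IL-4 libraries alone. The counts thus describe the genes that passed the filter and are no test of how far rises and falls reach. The values of the 2 conditions did not overlap in 1359 of the 1365 genes that rose and in all 1766 that fell. Conditions that do not overlap are common with 2 libraries each, and were found for 19.8% of all tested genes in the higher and 41.5% in the lower direction. In bulk RNA, fewer cells of a type and less RNA per cell cannot be told apart, and this holds for every difference described here.

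**Figure D2:**
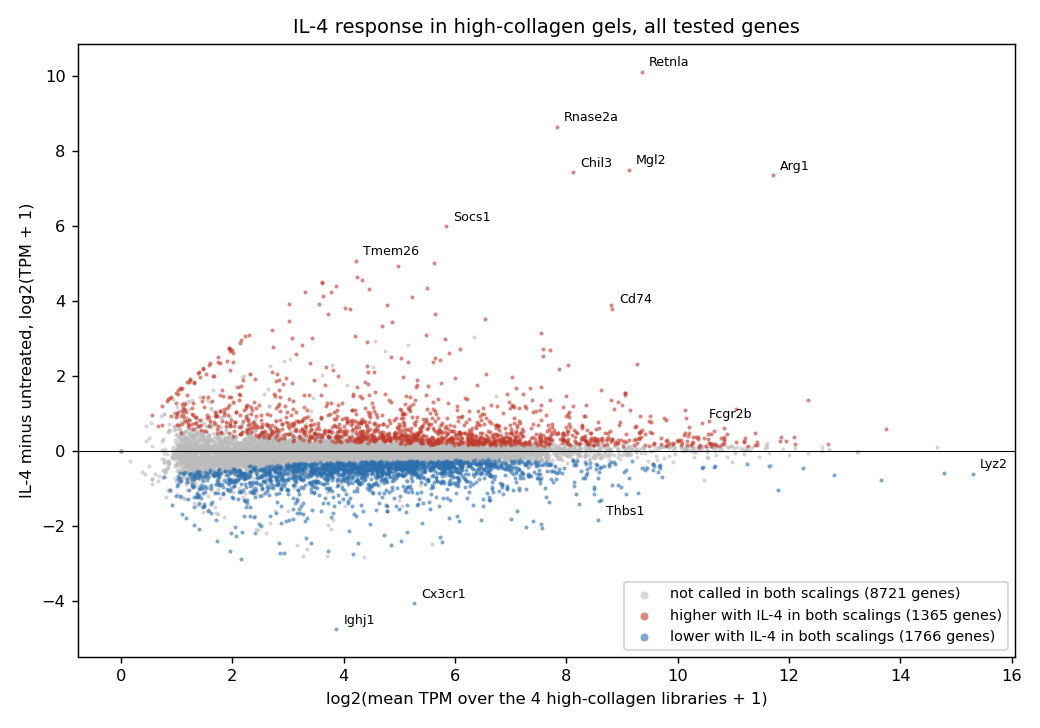
Each point is 1 of the 11852 genes, with its mean level over the 4 high-collagen libraries on the x axis (log2 scale) and its change with IL-4 on the y axis (log2(TPM + 1), IL-4 minus untreated), coloured by its call in both scalings (red 1365 higher, blue 1766 lower). Retnla has the largest rise, at 10.11, and the rises extend further than the falls.

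The largest rise was that of Retnla, which encodes RELMα, a secreted protein of alternatively activated macrophages. It lies at chr16:48842551-48844461 on the plus strand of GRCm38. Its level was 0.390 and 0 TPM in the untreated libraries and 1472 and 1152 TPM with IL-4, a change of 10.11 ± 0.20 on the log2 scale (limma, SE, adjusted p = 1.31e-07). Rnase2a, a member of the eosinophil-associated ribonuclease family, followed with 0 and 0.273 TPM without and 468 and 437 TPM with IL-4. Both genes were at or near 0 in every untreated library and abundant in every IL-4 library, so the size of their change depends on the pseudocount. Over the alternatives tried, the change of Retnla ranged from 9.87 to 12.5.

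Arg1 (chr10:24915221-24927484, minus strand) encodes arginase 1, which splits arginine into ornithine and urea and so feeds polyamine and proline synthesis. It was measured at 41.5 and 37.6 TPM (mean 39.5 ± 2.78 SD, n = 2) without IL-4 and at 6999 and 6307 TPM (mean 6653 ± 489 SD, n = 2) with IL-4. The change of 7.36 ± 0.08 on the log2 scale, or 164-fold, was called with an adjusted p of 6.05e-09 by limma and ranged from 7.28 to 7.46 over the alternatives. Unlike Retnla and Rnase2a, Arg1 was already transcribed without IL-4. Mgl2, a galactose-binding lectin receptor, rose from 6.43 and 4.06 TPM to 1139 and 1083 TPM (adjusted p = 3.51e-06 by limma). Chil3, which encodes the chitinase-like protein Ym1, rose from 1.78 and 2.66 TPM to 574 and 531 TPM (adjusted p = 1.03e-07 by limma). The transcripts of Chil3 share 41.5% of their 31-base words with other genes, mainly Chil4, and those of Mgl2 share 22.6%, mainly with Clec10a, so reads could be divided wrongly within these pairs.

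The other large rises joined signalling, transport and surface proteins. Socs1, an inhibitor of JAK kinases, rose from 0.825 and 0.691 TPM to 123 and 100.4 TPM. Slc7a2, a transporter of cationic amino acids such as arginine, rose from 0.890 and 1.14 TPM to 61.9 and 58.3 TPM. Il4i1, a secreted amino acid oxidase named for its induction by IL-4, rose from 1.47 and 2.58 TPM to 96.01 and 92.7 TPM. The remaining members of the 12 largest rises were Ccl8 and Egr2, given with their groups, the membrane protein gene Tmem26 and the tight junction gene Cldn11. Tmem26 was at 0.0726 and 0.0609 TPM without and 39.4 and 30.8 TPM with IL-4, and Cldn11 at 0.103 and 0 TPM without and 22.8 and 22.2 TPM with IL-4. In all 12, each IL-4 library was above each untreated library, which was a condition of their selection. A mean of at least 5 TPM over the 4 high-collagen libraries was another condition. Retnla, Rnase2a, Socs1, Tmem26, Ccl8, Egr2 and Cldn11 were under 1 TPM in both untreated libraries and met it through the IL-4 libraries alone.

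**Figure D3:**
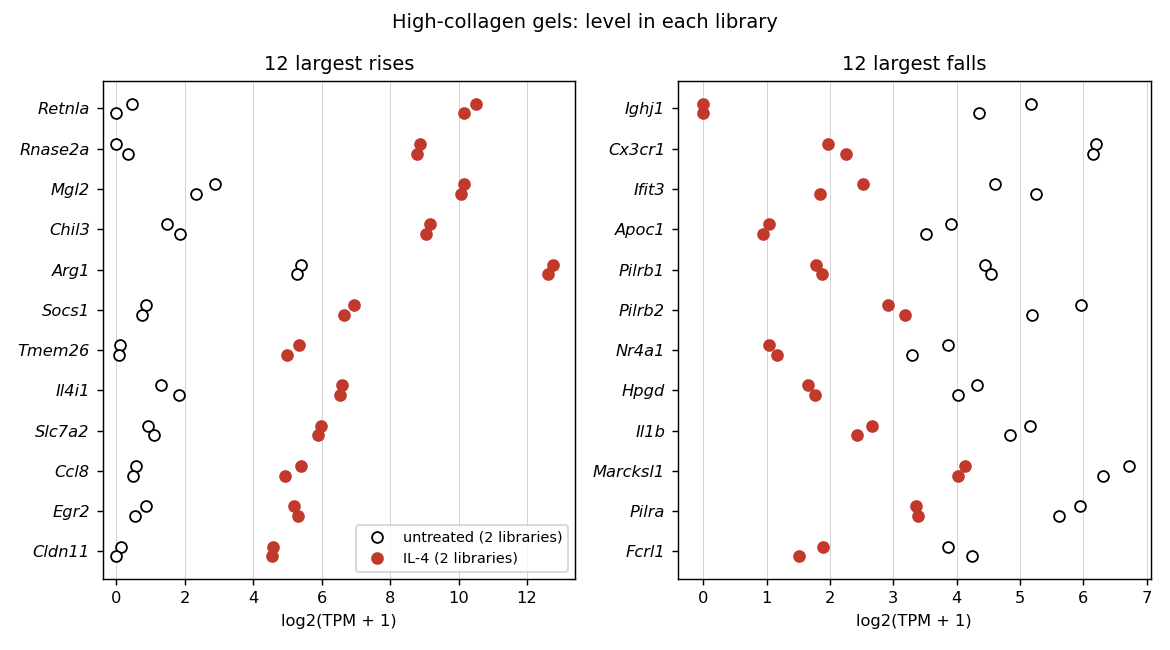
Level in each of the 4 high-collagen libraries (x axis, log2(TPM + 1)) of the 12 genes with the largest rises and the 12 with the largest falls (y axis). Open circles are the 2 untreated and filled circles the 2 IL-4 libraries. The conditions do not overlap in any of the 24 genes, because only genes without overlap were selected.

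Because IL-4 acts through STAT6, RefSeq promoter windows of GRCm38.p6, from 250 bases before to 50 after each start site, were searched for the letters of a STAT6 site. The motif was TTCNNNNGAA, which has a spacer of 4 bases and reads the same on both strands, and the related TTCNNNGAA with a spacer of 3 was counted beside it. Of 32851 windows 6.95% held the first and 8.3% the second. The first was present in 6.72% of the windows of genes that rose, 4.04% of those of genes that fell and 5.42% of those of all tested genes. It was in 9 of 80 windows (11.2%) of genes that rose at least 4-fold. The shares for the second were 6.09%, 7.39%, 6.94% and 10%. Genes with several start sites have overlapping windows, and these shares are a description with no test. Among the 12 largest rises and 12 largest falls, only Retnla and Tmem26 held the first motif. The stretches of their windows that lie before the start of the annotated gene are shown because both genes were near 0 without IL-4 and hold the motif, whose match is in capitals (chr16:48842359-48842550, plus strand, for Retnla and chr10:68723496-68723645, plus strand, for Tmem26).
Retnla: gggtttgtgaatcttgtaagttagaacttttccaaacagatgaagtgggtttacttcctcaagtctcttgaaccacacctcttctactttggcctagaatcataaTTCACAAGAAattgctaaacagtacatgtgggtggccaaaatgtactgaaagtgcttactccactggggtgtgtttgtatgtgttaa
Tmem26: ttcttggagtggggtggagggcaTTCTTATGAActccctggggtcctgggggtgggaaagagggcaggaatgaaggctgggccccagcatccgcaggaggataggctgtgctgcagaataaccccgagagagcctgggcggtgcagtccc

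The match in the Retnla window begins 145 bases before the RefSeq start. The Tmem26 window held a second match, TTCTCTGGAA, 41 bases before the RefSeq start and inside the span of the GENCODE gene. The windows of Rnase2a, Mgl2, Chil3, Socs1, Il4i1, Ccl8, Egr2 and Cldn11 did not hold these letters, which says nothing about sites elsewhere. Arg1, Slc7a2, Ighj1 and Apoc1 had no entry.

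Among the receptor chains, kinases and feedback inhibitors of IL-4 signalling, Socs1 and Cish changed most. Il4ra, the IL-4Rα chain, was at 107 and 100.8 TPM without and 94.99 and 85.8 TPM with IL-4, and Stat6 at 124 and 128 TPM without and 108 and 107 TPM with IL-4. Il4ra and Stat6 were called lower as deposited only (-0.20 and -0.23 on the log2 scale), and so was Jak1, so no direction is given. Il2rg, the common γ chain, was called only after rescaling, and Tyk2 in neither scaling. Il13ra1, the chain of the alternative receptor, fell from 14.9 and 15.3 TPM to 4.28 and 4.45 TPM (-1.59 ± 0.16, adjusted p = 0.000439 by limma). Jak2, a kinase used with that chain, rose from 13.4 and 14.97 TPM to 30.6 and 29.99 TPM, while Jak3, the kinase bound to the γ chain, was called lower by 0.39 on the log2 scale. The call of Jak3 was lost under 4 of 19 alternatives, among them the fits without the first or the second untreated or the first IL-4 library. Besides Socs1, the STAT-induced inhibitor Cish rose from 3.18 and 3.19 TPM to 70.8 and 69.8 TPM, and Socs3, better known from IL-6 signalling, fell by 0.50, a call lost without the second IL-4 library. In all, 5 of the 14 tested members of this list rose and 4 fell, against 11.5% and 14.9% of all genes tested. The list had a median of -0.08 as deposited and 0.03 after rescaling.

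Of 18 tested transcription regulators linked to alternative activation, 10 rose and 3 fell, with a median of 0.58 on the log2 scale as deposited and 0.68 after rescaling, against -0.10 and -0.01 for all genes. Egr2, a zinc finger factor, rose from 0.821 and 0.473 TPM to 35.97 and 38.9 TPM (4.55 ± 0.17, adjusted p = 3.31e-06 by limma). Klf4, a Krüppel-like factor, rose from 7.40 and 8.01 TPM to 46.9 and 49.01 TPM, and Bhlhe40 rose from 13.8 and 15.6 TPM to 74.7 and 85.95 TPM. Irf4, Pparg, Ppargc1b, Myc, Batf3 and Tfec rose as well, by 0.89 to 2.10. The falls included Maf, which went from 223 and 193 TPM to 108 and 95.7 TPM, and the C/EBP family member Cebpb, which fell by 0.57 on the log2 scale.

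Among 25 tested markers of alternative activation, 22 rose and 1, the haemoglobin scavenger receptor Cd163, was called lower, with a median of 2.30 as deposited and 2.41 after rescaling. The call of Cd163 was lost under 3 of 18 alternatives, among them the fits without the first untreated or the first IL-4 library. The list includes 8 genes that the study picked from these samples, so its direction is not independent evidence. Mrc1, the mannose receptor, was abundant in both conditions and rose from 377 and 348 TPM to 773 and 766 TPM (1.09 ± 0.10, adjusted p = 0.000377 by limma). Fn1, the matrix protein fibronectin, rose from 55.3 and 55.1 TPM to 368 and 358 TPM (2.69 ± 0.11). The rises of Ear2 and Ccl24 were at low levels. Ear2, another ribonuclease of the eosinophil-associated family, was at 0.616 and 0.257 TPM without and 5.50 and 5.18 TPM with IL-4, with 60.5% of its 31-base words shared with other genes. Ccl24, the chemokine eotaxin-2, was at 2.12 and 0.353 TPM without and 3.44 and 5.92 TPM with IL-4 (adjusted p = 0.0401 by limma), and its replicates lay far apart. Tgm2, transglutaminase 2, and the scavenger receptor Msr1 were not called in either scaling.

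Of 20 tested genes of arginine and polyamine metabolism, 10 rose and 1 fell, with a median of 0.28 as deposited and 0.36 after rescaling. Besides Arg1 and Slc7a2, Ass1, which rebuilds arginine from citrulline, rose from 21.4 and 22.4 TPM to 43.4 and 45.4 TPM, with 43.1% of its 31-base words shared with a predicted gene. The fall was that of Smox, spermine oxidase, which went from 115 and 99.5 TPM to 72.4 and 76.6 TPM. Odc1, the enzyme that follows arginase in polyamine synthesis, was not called (40.3 and 41.1 TPM without and 42.3 and 42.6 TPM with IL-4).

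Most CC chemokines rose, and most CXC chemokines and chemokine receptors fell. Of 12 tested CC chemokines, 9 rose and 2 fell, and of 10 tested receptors for chemokines and chemoattractants 9 fell and 0 rose. The medians were 1.42 and -1.32 as deposited and 1.46 and -1.22 after rescaling. The 3 largest rises, all of monocyte attractants, lie together on the plus strand of chromosome 11. Ccl7 (chr11:82045712-82047525) rose from 47.2 and 28.6 TPM to 358 and 314 TPM, Ccl12 (chr11:82101845-82103400) rose from 20.2 and 14.2 TPM to 128 and 108 TPM, and Ccl8 (chr11:82115185-82116799) rose from 0.481 and 0.401 TPM to 41.4 and 29.7 TPM. The CC chemokines that fell are neighbours elsewhere on the same chromosome. Ccl3 (chr11:83647844-83649355) fell from 33.05 and 23.8 TPM to 13.2 and 15.04 TPM, and Ccl4 (chr11:83662584-83664683) fell from 26.1 and 22.3 TPM to 13.9 and 16.5 TPM. Of 6 tested CXC chemokines, 5 fell and 0 rose, among them the neutrophil attractant Cxcl2, from 14.2 and 11.9 TPM to 2.81 and 4.21 TPM, and Cxcl14, from 25.5 and 24.7 TPM to 7.89 and 8.78 TPM.

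The receptor that fell most was Cx3cr1, the receptor of fractalkine and a mark of resident and patrolling mononuclear cells. It was at 72.4 and 70.2 TPM (mean 71.3 ± 1.57 SD, n = 2) without and at 2.92 and 3.77 TPM (mean 3.34 ± 0.602 SD, n = 2) with IL-4, a change of -4.06 ± 0.17 on the log2 scale with an adjusted p of 6.91e-06 by limma. The formyl peptide receptors, which guide phagocytes to bacteria, fell too, Fpr1 from 7.08 and 5.67 TPM to 0.976 and 0.346 TPM and Fpr2 from 5.04 and 6.96 TPM to 0.582 and 0.275 TPM. Both receptors for the complement fragment C5a fell, C5ar1 from 220.4 and 182 TPM to 59.6 and 52.2 TPM and C5ar2 from 16.3 and 14.7 TPM to 6.63 and 5.83 TPM. Cmklr1, the chemerin receptor, was the tested member that was not called. Complement C3 itself rose from 77.6 and 89.7 TPM to 396 and 366 TPM.

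C-type lectins and scavenger receptors were divided, with 9 of 22 tested members higher and 9 lower, against 11.5% and 14.9% of all genes tested. The rises were led by Mgl2 and its neighbour Clec10a, which lies on the same strand of chromosome 11 and rose from 233 and 185 TPM to 1011 and 1045 TPM. The falls were led by lectins that sense microbes or dying cells. Clec4n (Dectin-2) fell from 303 and 288 TPM to 77.4 and 73.6 TPM, Clec12a fell from 130.1 and 136 TPM to 46.8 and 46.6 TPM, and Clec4e (Mincle) fell from 56.3 and 58.5 TPM to 19.4 and 21.2 TPM. Clec7a (Dectin-1), which lies on chromosome 6 like these 3 genes, rose from 128 and 141 TPM to 355 and 387 TPM. Fcγ receptors were divided as well. The inhibitory Fcgr2b rose from 1024 and 1062 TPM to 1738 and 1717 TPM, and Fcgr3 rose by 0.37 on the log2 scale, while the high-affinity Fcgr1 fell from 94.2 and 107 TPM to 31.1 and 27.5 TPM and Fcgr4 fell by 0.64.

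Of 20 tested Toll-like receptors and adaptors, 11 fell and 2 rose, with medians of -0.47 as deposited and -0.37 after rescaling. Tlr2, the receptor of bacterial lipoproteins, fell from 58.4 and 44.5 TPM to 16.6 and 14.9 TPM, and the lipopolysaccharide co-receptor Cd14 fell from 472 and 405 TPM to 166 and 156 TPM. Tlr4, the receptor that Cd14 serves, rose from 32.1 and 31.7 TPM to 51.99 and 50.4 TPM, and its adaptor Ticam2 rose by 0.58. Of 17 tested inflammatory cytokines and inflammasome genes, 4 rose and 4 fell, against 11.5% and 14.9% of all genes tested. The falls were led by Il1b, from 34.7 and 27.8 TPM to 5.34 and 4.39 TPM, Tnf, from 9.04 and 8.76 TPM to 1.64 and 2.28 TPM, and Nlrp3, the inflammasome sensor, from 52.5 and 47.5 TPM to 23.5 and 21.6 TPM. The rises were led by Csf1, the macrophage growth factor, from 6.82 and 9.88 TPM to 15.6 and 20.7 TPM, and Il1rn, the IL-1 receptor antagonist, from 7.45 and 7.17 TPM to 10.8 and 14.9 TPM. Nos2, inducible nitric oxide synthase, was called higher but stayed low, at 0.433 and 0.636 TPM without and 1.49 and 1.46 TPM with IL-4, and lost the call under 3 of 17 alternatives, among them the fits without the first untreated or the first IL-4 library.

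Of 34 tested interferon-stimulated genes, 15 fell and 0 rose, with medians of -0.74 as deposited and -0.66 after rescaling. Ifit3 fell from 23.4 and 37.3 TPM to 4.76 and 2.58 TPM (-2.75 ± 0.59, adjusted p = 0.0179 by limma), and 61.8% of its 31-base words are shared with Ifit3b. Rtp4 fell from 43.4 and 41.9 TPM to 10.9 and 6.08 TPM. Replicates spread widely in this group, as in Ifit1, with 5.19 and 13.99 TPM without and 3.15 and 1.24 TPM with IL-4, and its call was lost under 4 of 19 alternatives, among them the fits without the second untreated or either IL-4 library. Irf7, Mx1 and Usp18 were not called in either scaling.

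Of 13 tested genes of MHC class II presentation 6 rose and 3 fell, against 11.5% and 14.9% of all genes tested. Cd74, the invariant chain, rose from 59.5 and 60.3 TPM to 888 and 789.7 TPM (3.78 ± 0.07, adjusted p = 1.31e-07 by limma), H2-Eb1 rose from 10.6 and 8.31 TPM to 29.1 and 26.4 TPM, and H2-Aa rose from 19.9 and 18.7 TPM to 46.9 and 47.6 TPM. The promoter factors Rfx5 and Rfxap fell by 0.62 and 0.46, and the call of Rfxap was lost without the first untreated or the first IL-4 library. The ligands of the inhibitory receptor PD-1, which are neighbours on chromosome 19, both rose. Pdcd1lg2 (PD-L2, chr19:29410919-29471161) rose from 0.711 and 0 TPM to 30.5 and 23.2 TPM and Cd274 (PD-L1, chr19:29367455-29388095) rose from 19.3 and 21.6 TPM to 69.4 and 69.2 TPM. Of the 11 tested costimulatory and checkpoint ligands 4 rose and 4 fell, and the largest fall was that of Icosl, the ligand of ICOS, from 34.4 and 36.2 TPM to 13.3 and 15.4 TPM.

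Matrix and repair factors were divided, with 5 of 20 tested members higher and 5 lower, against 11.5% and 14.9% of all genes tested. Besides Fn1, the growth factors Igf1, from 262 and 286 TPM to 817 and 765 TPM, and Hbegf, from 0.0798 and 0.0669 TPM to 5.17 and 6.68 TPM, rose. Thbs1 (thrombospondin 1, an activator of TGFβ) fell from 668 and 528 TPM to 182 and 147 TPM, the crosslinking enzyme F13a1 fell from 725 and 761 TPM to 343 and 319 TPM, and Tgfbi fell from 408 and 383 TPM to 181 and 175 TPM. Of 23 tested proteases and inhibitors 12 rose and 3 fell. Mmp12, macrophage elastase, rose from 86.2 and 101.2 TPM to 225 and 251 TPM, the collagenase Mmp13 rose from 3.31 and 4.36 TPM to 8.89 and 13.5 TPM, and the sheddase Adam8 rose from 317 and 296 TPM to 686 and 755 TPM. The collagenase Mmp8 fell by 0.99 and the membrane-bound Mmp14 by 0.58 on the log2 scale. Of 12 tested integrin subunits 3 rose and 5 fell. Itgax (CD11c) rose from 2.37 and 2.56 TPM to 46.1 and 54.4 TPM and Itgb3 rose from 3.79 and 4.34 TPM to 36.6 and 37.02 TPM, while Itgal fell from 29.96 and 25.5 TPM to 7.53 and 7.54 TPM and Itga6 fell from 207 and 208 TPM to 64.02 and 70.5 TPM. Itgb1, the chain shared by collagen receptors, was called higher by 0.17 and lost that call under 5 of 19 alternatives, among them the fits without the first untreated or either IL-4 library.

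Of 11 tested genes of macrophage fusion 8 rose and 0 fell, with a median of 0.60 as deposited and 0.70 after rescaling. Atp6v0d2, a proton pump subunit found in osteoclasts and fused macrophages, rose from 47.2 and 51.7 TPM to 323 and 342 TPM (2.73 ± 0.08, adjusted p = 1.04e-06 by limma), Acp5, tartrate-resistant acid phosphatase, rose from 3.996 and 3.11 TPM to 21.1 and 19.4 TPM, and Cdh1, E-cadherin, rose from 0 and 0.111 TPM to 5.62 and 5.79 TPM. Of 42 tested genes of the lysosome and its proton pump 25 rose and 3 fell, most of them by small amounts, with medians of 0.20 and 0.30. The pump subunit Atp6v1b2 rose from 181 and 189.6 TPM to 341 and 350.1 TPM. The lysosomal glycoprotein Cd68, a marker of macrophages, rose from 1418 and 1463 TPM to 2165 and 2214 TPM.

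**Figure D4:**
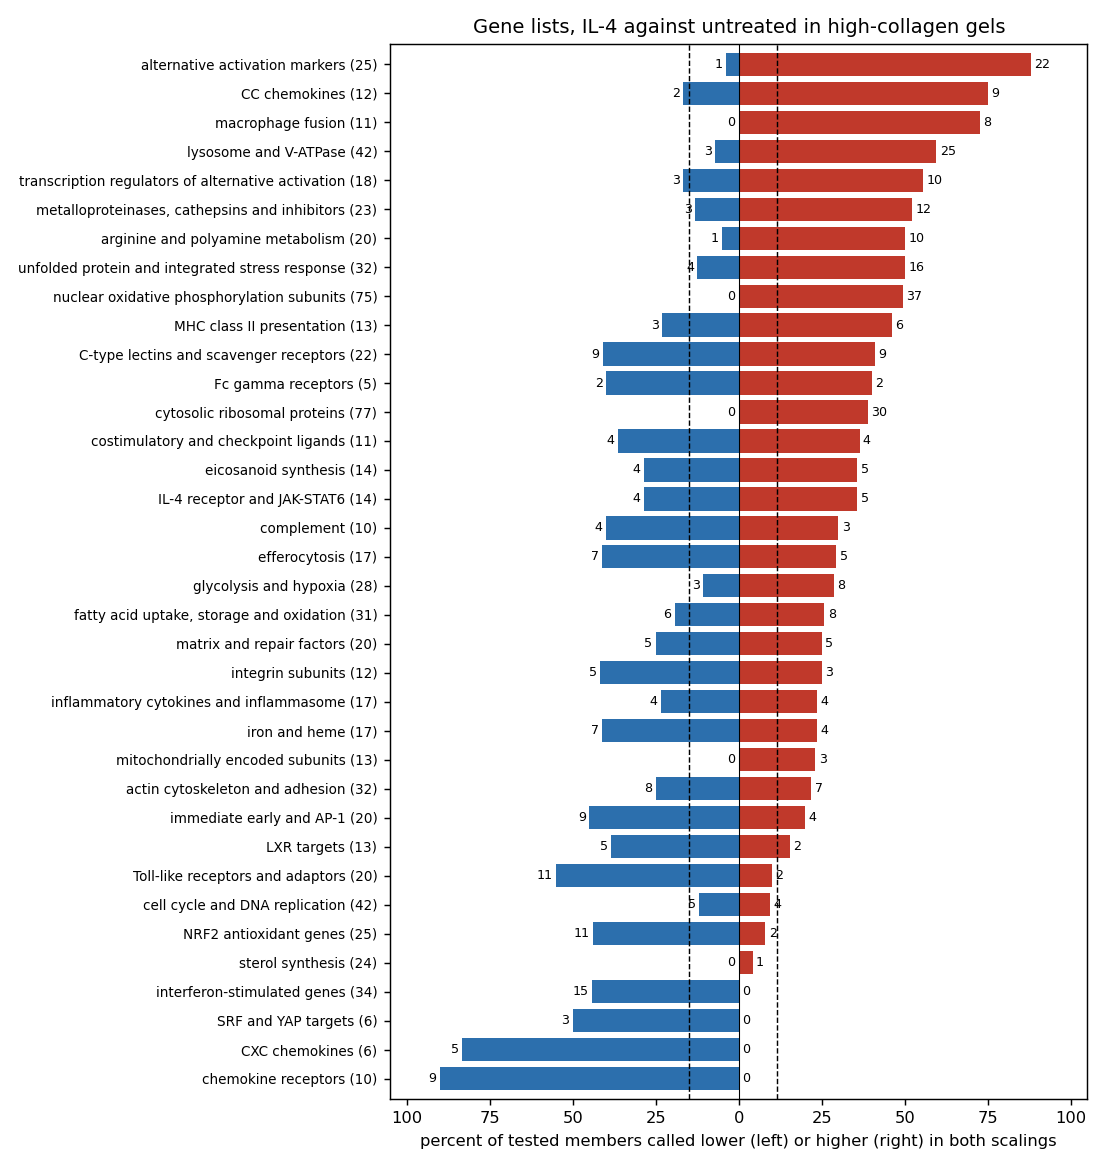
For each gene list with at least 5 tested members, the percentage of members called higher (right) and lower (left) with IL-4 in high-collagen gels in both scalings, with the number of genes at each bar. Dashed lines mark the percentages over all tested genes, 11.5% higher and 14.9% lower. Alternative activation markers reach far to the right, with 22 of 25 higher, and chemokine receptors far to the left, with 9 of 10 lower.

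Of 75 tested nuclear subunits of oxidative phosphorylation 37 rose and 0 fell, with a median of 0.17 as deposited and 0.27 after rescaling. Over all genes tested, 11.5% rose and 14.9% fell. Of 77 cytosolic ribosomal proteins 30 rose and 0 fell, with medians of 0.11 and 0.22. The largest rises among them were those of Ndufa1, from 196 and 186 TPM to 255 and 268 TPM, and Rps18, from 1560 and 1629 TPM to 2225 and 2133 TPM. Of the 13 mitochondrially encoded subunits 3 rose and 0 fell. The call of mt-Co3 was lost under 7 of 19 alternatives, among them each of the 4 high-collagen libraries left out, and those of mt-Atp6 and mt-Cytb under quantile normalization. Nearly all 31-base words of mt-Co3 (99.9%) and mt-Atp6 (99.5%) are shared with other genes. Mitochondrial transcripts took 3.97% and 3.72% of the TPM without and 4.07% and 4.16% with IL-4. Fatty acid genes did not share a direction, with 8 of 31 higher and 6 lower. The lipid-binding Fabp4 rose from 16.7 and 21.04 TPM to 52.97 and 51.04 TPM and the scavenger receptor Cd36 rose from 151 and 151 TPM to 338 and 341 TPM, while Angptl4, a lipase inhibitor, fell from 13.4 and 11.3 TPM to 2.77 and 2.67 TPM. Of 24 genes of sterol synthesis 1, Mvd, rose and 0 fell. Of 28 glycolysis and hypoxia genes 8 rose and 3 fell. The oxidase Ero1l rose from 106 and 128 TPM to 251 and 248 TPM and Vegfa, the vascular growth factor, fell from 609 and 577 TPM to 289 and 340.3 TPM.

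Of 32 genes of the unfolded protein and integrated stress responses 16 rose and 4 fell, against 11.5% and 14.9% of all genes tested. The folding enzyme Pdia4 rose from 72.8 and 70.2 TPM to 180.3 and 172 TPM and Sdf2l1 rose from 62.6 and 59 TPM to 122 and 120.1 TPM. Of 25 NRF2 antioxidant genes 11 fell and 2 rose, and superoxide dismutase Sod1 fell from 631 and 641 TPM to 327 and 350.1 TPM. In iron handling 4 of 17 rose and 7 fell. Tfrc, which imports transferrin iron, rose from 9.95 and 7.07 TPM to 87.4 and 70.6 TPM (3.08 ± 0.16, adjusted p = 1.58e-05 by limma). The iron exporter Slc40a1 (ferroportin) fell from 298 and 299 TPM to 111 and 119 TPM, Slc11a1, a metal transporter of phagosomes, fell from 484 and 472 TPM to 258 and 231 TPM, and the ferritin subunit Fth1 fell from 32860 and 34980 TPM to 21701 and 23146 TPM. The import receptor thus rose while the exporter and 1 storage subunit fell.

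Of 20 immediate early genes 9 fell and 4 rose. Over all genes tested 14.9% fell and 11.5% rose, and several counts in this paragraph lie near these shares. Fos fell from 107 and 67.9 TPM to 15.1 and 17.6 TPM and the nuclear receptor Nr4a1 fell from 13.5 and 8.77 TPM to 1.05 and 1.23 TPM, with the untreated replicates apart from each other in both genes, while Ier3 rose from 86.2 and 72.4 TPM to 188 and 161 TPM. Of 42 cell cycle genes 4 rose and 5 fell, against 11.5% and 14.9% of all genes tested. The cyclin Ccnd2 fell by 1.39 on the log2 scale. Of 32 genes of the actin cytoskeleton 7 rose and 8 fell. The membrane linkers Ezr and Msn rose, by 0.56 and 0.52, and the focal adhesion genes Vcl and Pxn fell, by 0.53 and 0.45, and the call of Vcl was lost without the first IL-4 library. Of 6 tested SRF and YAP targets 3 fell and 0 rose. Of 17 efferocytosis genes 5 rose and 7 fell, with the annexin Anxa1 from 262 and 294 TPM to 477 and 476 TPM and the scavenger receptor Stab1 from 426 and 317 TPM to 193 and 186 TPM. Of 13 LXR targets 2 rose and 5 fell, among them Apoe, from 17029 and 15482 TPM to 9886 and 9024 TPM. In eicosanoid synthesis 5 of 14 rose and 4 fell, with cyclooxygenase 1 (Ptgs1) from 40.4 and 39.8 TPM to 107 and 106 TPM. In the complement list 3 of 10 rose and 4 fell.

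The other large falls included a family cluster of paired immunoglobulin-like receptors that lie side by side on the minus strand of chromosome 5. Pilra (chr5:137821952-137836281) fell from 60.7 and 48.2 TPM to 9.21 and 9.49 TPM, Pilrb1 (chr5:137852147-137858106) fell from 20.9 and 22.4 TPM to 2.44 and 2.67 TPM, and Pilrb2 (chr5:137865827-137871815) fell from 61.4 and 35.6 TPM to 6.51 and 8.13 TPM. Pilrb1 and Pilrb2 share 42.8% of their 31-base words with each other, so their values are not independent. Hpgd, which breaks down prostaglandins, fell from 18.9 and 15.3 TPM to 2.15 and 2.39 TPM, Marcksl1 fell from 104.8 and 78.5 TPM to 16.5 and 15.3 TPM, and Fcrl1 fell from 13.6 and 17.8 TPM to 2.72 and 1.86 TPM. Apoc1, an LXR target and apolipoprotein gene next to Apoe on chromosome 7, fell from 14.04 and 10.5 TPM to 1.06 and 0.928 TPM. First by size was Ighj1, an immunoglobulin joining segment at chr12:113429781-113429833, listed at 34.9 and 19.4 TPM in the untreated libraries and at 0 in both IL-4 libraries and in all 8 libraries of the other substrates, so no fold is given. It passed the filters through the untreated high-collagen libraries alone. The segment is very short, with only 23 31-base words, and how many reads stand behind its length-corrected values is unknown.

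Macrophage markers themselves shifted, and these shifts stand beside every group above. Of 11 tested markers 7 were called lower and 2, Cd68 and Adgre1, higher, with medians of -0.43 and -0.32, and their sum went from 58652 and 58555 TPM to 42468 and 40256 TPM. Most of the drop in the sum was that of Lyz2, whose call was lost under quantile normalization. Csf1r fell by 0.43 on the log2 scale, Mertk, a receptor for dying cells, by 0.57 and the lineage factor Spi1 (PU.1) by 0.34. Aif1 fell from 137 and 96.9 TPM to 41.9 and 41.1 TPM. Adgre1 (F4/80) was at 0.12 but lost the call under 10 of 19 alternatives, among them each of the 4 high-collagen libraries left out, and was at -0.045 under quantile normalization. Tyrobp was not called.

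Markers of other cells were low or rested on single receptors. The 12 neutrophil markers summed to 103 and 95.8 TPM without and to 176 and 172 TPM with IL-4. Most of that was Csf3r, the receptor of G-CSF, which rose from 66.7 and 62.5 TPM to 151 and 149 TPM, while Ly6g and Mpo were at 0 in all 4 libraries. Of the 5 tested neutrophil markers, Mmp8 and S100a8 were called lower, by 0.99 and 0.63, and the call of S100a8 was lost without the first untreated or the first IL-4 library. The 11 lymphocyte markers summed to 35.3 and 40.1 TPM without and to 68.6 and 65.2 TPM with IL-4, mainly the IL-7 receptor Il7r, which rose from 28.2 and 33.4 TPM to 57.5 and 54.9 TPM, with Ncr1 at 0. Of 10 fibroblast markers, the matrix protein Postn was listed at 0 in both untreated libraries and at 3.66 and 4.50 TPM with IL-4, and the collagens Col1a1 and Col1a2 were at 0.129 TPM or less in each library. The 7 erythroid markers summed to at most 0.76 TPM, with 5 at 0. The part of other cells in the changes was not tested.

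The design also asks whether the collagen content of the gel alters the response. The effect of IL-4 in high-collagen gels differed from that in low-collagen gels in 43 genes (0.363% of those tested), 23 with a higher and 20 with a lower value in high-collagen gels as deposited, and 14 and 25 after rescaling. Of these, 13 and 18 had the same call in both scalings. A total of 1171 of the 11852 genes had an unadjusted limma p-value under 0.05. With no difference at all, a share of 0.05 of the tested genes would be expected there, so 1171 is no count of genes that differed. The count depended on single libraries, with 14 genes without the first untreated and 20 or 12 without the first or the second IL-4 library of high-collagen gels. It was 16 without the second untreated and 20 or 15 without the first or second IL-4 library of low-collagen gels. With the replicate number as a block it was 18. Side by side, 75.8% of the genes higher with IL-4 in high-collagen gels as deposited were also called higher in low-collagen gels, which is 66.1% of those called there. For genes called lower the shares were 83.0% and 46.8%. As background, 1567 of all 11852 genes tested were called higher and 4784 lower in low-collagen gels as deposited. In high-collagen gels 11.5% were called higher and 22.8% lower. The number of lower calls turned on the scaling, so the shares for lower genes hold for TPM as deposited only. The 2 IL-4 effects share no library.

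Leaving out genes with a Gm or Rik name, the 6 largest differences in the higher direction called in both scalings were those of Slc40a1, Gpr162, Slco2b1, S1pr1, Arhgap18 and Pkib. All but Pkib were called lower with IL-4 in both gels, with a smaller fall in high-collagen gels. Thbs1, with a difference of 1.15, was called as deposited only. Slc40a1, the iron exporter described above, was at 298 and 299 TPM without and 111 and 119 TPM with IL-4 in high-collagen and at 381 and 373 TPM without and 67.9 and 77.2 TPM with IL-4 in low-collagen gels, a difference of the IL-4 effects of 0.99 ± 0.11 (limma interaction, adjusted p = 0.0326). The orphan receptor Gpr162 fell from 62.4 and 60.4 TPM to 35.99 and 38.5 TPM in high-collagen gels and was at 72.2 and 69.6 TPM without and 20.98 and 20.6 TPM with IL-4 in low-collagen gels. The transporter Slco2b1, the sphingosine 1-phosphate receptor S1pr1 and Arhgap18 differed in the same direction, by 0.98, 0.96 and 0.69. Pkib, an inhibitor of protein kinase A, was at 71.2 and 80.5 TPM without and 85.6 and 87.2 TPM with IL-4 in high-collagen gels and at 76 and 78.7 TPM without and 49.9 and 44.5 TPM with IL-4 in low-collagen gels. With IL-4, each of these 6 genes was higher in both high-collagen libraries than in both low-collagen libraries.

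Genes with a lower value included alternative activation genes that rose less in high-collagen gels. Retnla, with 1472 and 1152 TPM under IL-4 in high-collagen gels, reached 7612 and 9073 TPM in low-collagen gels, where it was at 0 and 0.296 TPM without IL-4, a difference of -2.72 ± 0.28 (limma interaction, adjusted p = 0.0319). Fn1 was at 55.3 and 55.1 TPM without and 368 and 358 TPM with IL-4 in high-collagen and 20.3 and 25.6 TPM without and 607 and 547 TPM with IL-4 in low-collagen gels, a difference of -1.91 ± 0.15. Its untreated level was higher and its IL-4 level lower in high-collagen gels. Chil3 differed by -1.49, Ch25h, which makes 25-hydroxycholesterol, by -1.81 and AA467197 by -1.27. Arg1 and Mrc1 were not called, with differences of -0.08 ± 0.11 and -0.17 ± 0.15. Of 25 tested alternative activation markers 7 had a lower IL-4 effect in high-collagen gels as deposited and 0 a higher one. Among all 11852 genes tested, 20 were lower and 23 higher. The list includes genes that the study picked from these samples for lower expression in high-collagen gels, so this direction is not independent evidence.

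**Figure D5:**
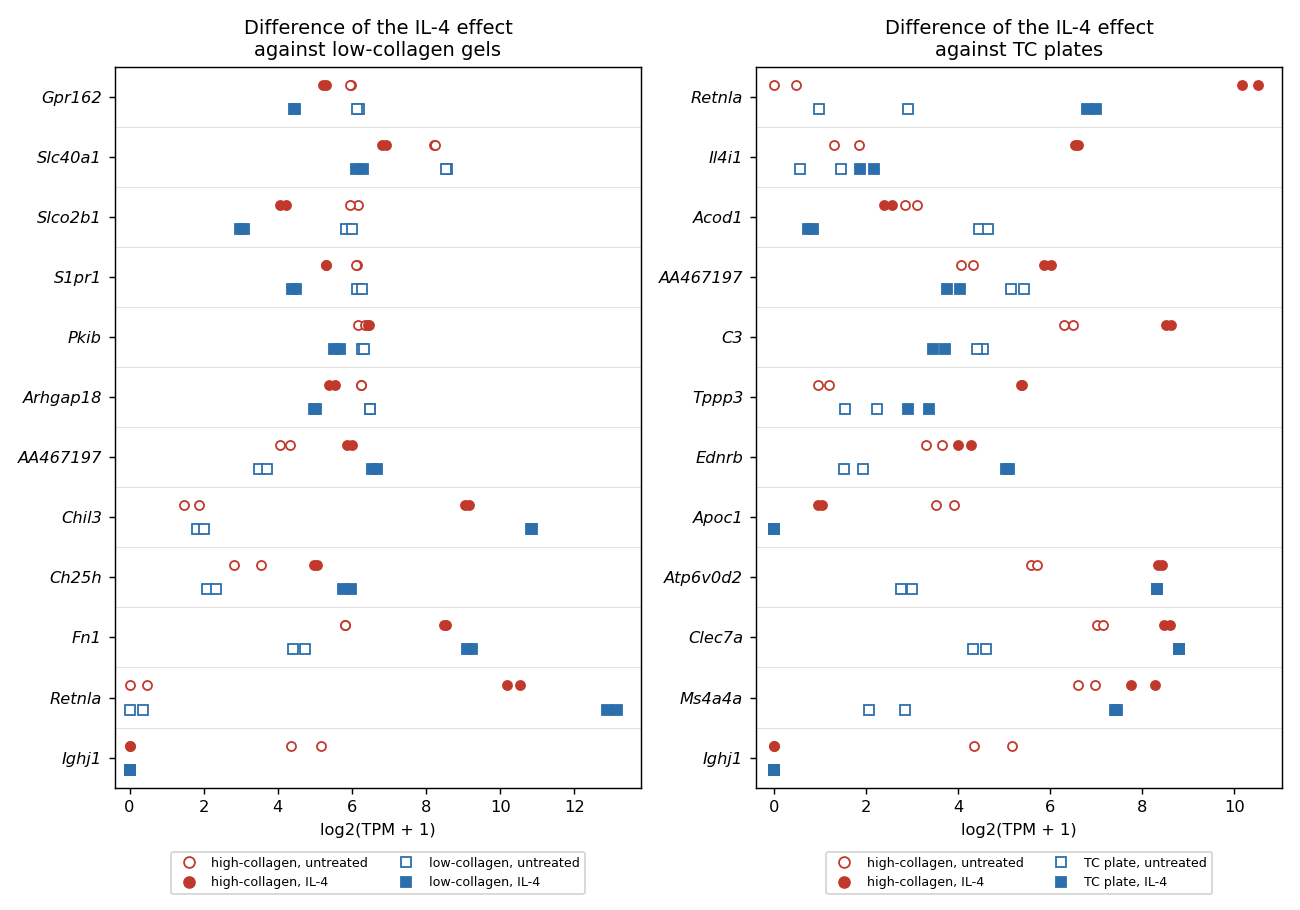
Level in each library (x axis, log2(TPM + 1)) of the genes with the largest differences of the IL-4 effect between high-collagen gels and low-collagen gels (left) or TC plates (right). Circles are high-collagen and squares the other substrate, open without and filled with IL-4, 2 libraries each. For Retnla the filled circles lie below the filled squares on the left and above them on the right.

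Against TC plates the response differed in many more genes. In the fit of all 12 libraries over 11865 genes, the effect of IL-4 was higher in high-collagen gels for 1028 genes (8.66%) and lower for 1022 (8.61%), and after rescaling for 1322 and 829. The total of 2050 fell to 1361 without the first untreated TC library. Of the genes higher with IL-4 in high-collagen gels 57.5% were also called higher on TC plates, which is 45.8% of the latter, and for lower genes the shares were 49.1% and 47.1%. These shares set calls of the gel fit beside TC calls of the fit of all 12 libraries, both as deposited. They cover the 11852 genes tested in gels, of which 1717 were called higher and 2814 lower on TC plates. Collagen, embedding in a gel and the stiffness of the plate cannot be told apart in this comparison.

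Retnla had a larger IL-4 effect in high-collagen gels than on TC plates, where it was at 0.969 and 6.52 TPM without and 127 and 109.7 TPM with IL-4, with a difference of 5.16 ± 0.68 (limma, adjusted p = 0.00217). Il4i1 reached 2.63 and 3.52 TPM with IL-4 on TC plates, against 96.01 and 92.7 TPM in high-collagen gels, and differed by 3.99. The complement gene C3, which rose in high-collagen gels, was at 22.3 and 20.1 TPM without and 9.91 and 12.1 TPM with IL-4 on TC plates, a difference of 3.07. Acod1, which makes the antimicrobial metabolite itaconate, was not called in high-collagen gels (7.54 and 6.13 TPM without and 4.88 and 4.19 TPM with IL-4) and was at 21 and 24.1 TPM without and 0.656 and 0.793 TPM with IL-4 on TC plates. AA467197 differed by 3.14 and Tppp3, a tubulin-binding protein, by 3.07. In the opposite direction, Arg1 differed by -1.997 ± 0.51, with 1.76 and 7.09 TPM without and 3114 and 3069 TPM with IL-4 on TC plates. In high-collagen gels it was higher in both conditions, at 41.5 and 37.6 TPM without and 6999 and 6307 TPM with IL-4. The smaller effect of IL-4 thus went with a higher untreated level, and the untreated TC replicates lay apart.

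The genes with the largest differences in the lower direction had higher untreated levels in high-collagen gels. Atp6v0d2 was at 5.77 and 6.92 TPM without and 317 and 321 TPM with IL-4 on TC plates and at 47.2 and 51.7 TPM without and 323 and 342 TPM with IL-4 in high-collagen gels, so the levels with IL-4 were close and those without were not, and the effects differed by -2.72 ± 0.12 (limma, adjusted p = 6.55e-06). Clec7a was at 19 and 23.2 TPM without and 443 and 445 TPM with IL-4 on TC plates and differed by -2.88. Ms4a4a, a tetraspan membrane protein, differed by -3.75 and the endothelin receptor Ednrb by -2.70, and in both the untreated level was again higher in both high-collagen libraries than in both TC libraries. Apoc1 was listed at 0 in all 4 TC libraries. By lists, the IL-4 effect was higher in high-collagen gels than on TC plates in both scalings for 20 of 28 glycolysis and hypoxia genes, 16 of 24 sterol synthesis genes and 13 of 42 cell cycle genes, and lower for 0 in each. The median IL-4 effects on TC plates in these lists were -0.46, -0.69 and -0.38, against 0.11, -0.01 and -0.07 in high-collagen gels, and the median difference over all genes was -0.03. Over all genes tested, 1004 were higher and 814 lower in both scalings, and as deposited the shares were 8.66% and 8.61%. Of fatty acid genes 2 of 31 were higher, near that share, and 11 lower. Of 10 chemokine receptors 1 was higher and 5 were lower. Several other lists also leaned higher. In both scalings 13 of 32 actin cytoskeleton genes were higher and 1 lower, and 12 of 25 NRF2 genes were higher and 1 lower. Among proteases and inhibitors 11 of 23 were higher and 2 lower, and among costimulatory and checkpoint ligands 6 of 11 were higher and 0 lower.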

How the data were processed

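The authors quantified transcripts from paired reads of stranded libraries with kallisto 0.46.1 on GRCm38, and they deposited 1 table of TPM per gene for 12 libraries. How transcripts were summed to genes is not given in the sources used here. TPM scale every library to the same total (999658 to 999723 here), so a fall of abundant transcripts raises others. Of 34456 lines 129 repeated another line and were collapsed, which left 34327 genes. Samples were grouped by their labels. Genes with a mean of at least 1 TPM were tested on log2(TPM + 1) with limma 3.58.1 in R 4.3.3, with a mean-variance trend and an adjusted p-value under 0.2. The gel fit held 8 libraries and the comparison with TC plates 12. In simulated data for IL-4 in high-collagen gels (11729 genes), 92% of genes changed 2-fold and 99% of those changed 4-fold were found, false calls made up 21.7%, and with none changed 0 genes were called. The simulation changed only a small set of genes, none at the lowest levels, with equal numbers raised and lowered and no shift between libraries. The real data differ in these points, so the simulated shares need not hold for the real calls. Python 3.11.15 with pandas 2.3.3, with numpy 2.4.6, made the tables, and matplotlib 3.10.9 the plots.

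Alternatives were median-ratio rescaling, quantile normalization, a pseudocount of 0.1, no filter or a mean of at least 5 TPM, no trend, a replicate block, fewer or more libraries in the fit, a stricter threshold of 0.05, calls limited to 2-fold changes, and each library left out. A fit corrected for GC content and length, and the block with the 4 high-collagen libraries, were added after seeing the data. Named genes are the 12 largest rises and falls called in both scalings (mean of at least 5 TPM, no overlap, no Gm or Rik symbol, no values identical to another symbol's), up to 3 rises and falls per list, the 6 largest differences each way against each other substrate, 8 genes named by the paper, the IL-4 receptor chains, kinases and Stat6, and the macrophage markers. Irf4, Pparg, Ppargc1b, Myc, Batf3, Tfec, Tgm2, Msr1, Odc1, Cmklr1, Irf7, Mx1 and Usp18 were named after their values were seen. The comparisons, members and lists were chosen with earlier results of these data known. Gene positions are from GENCODE on GRCm38, and shared 31-base words were counted in its transcripts.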

Additional observations from a re-analysis of the deposited data

Results flagged for a closer look

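The following genes stood out because the difference of the IL-4 effect between substrates was itself called by limma, here given on the log2 scale as high-collagen gels minus the other substrate. Against low-collagen gels the value was -2.72 for Retnla, -1.49 for Chil3, -1.91 for Fn1, -1.81 for Ch25h and -1.27 for AA467197, all of which rose with IL-4 in both gels. It was 0.994 for Slc40a1, 1.01 for Gpr162, 0.975 for Slco2b1, 0.957 for S1pr1 and 0.693 for Arhgap18, all of which fell in both gels, and 0.89 for Pkib. For Ighj1 it was -4.76, a value set by 2 libraries, since the gene was listed at 0 in the other 10 and its size depends on the pseudocount. The gene passed the filter through these 2 libraries alone.

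Against TC plates the value was 5.16 for Retnla, 3.99 for Il4i1, 3.27 for Acod1, 3.14 for AA467197, 3.07 for C3 and 3.07 for Tppp3. It was -3.75 for Ms4a4a, -2.88 for Clec7a, -2.72 for Atp6v0d2 and -2.7 for Ednrb. Apoc1 had -2.72 and Ighj1 again -4.76, and both were listed at 0 in all 4 TC libraries, so that these values are those of the high-collagen gels alone. Retnla was thus lower in its IL-4 effect than in low-collagen gels and higher than on TC plates.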

How the results depend on the processing

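The count of genes called with IL-4 in high-collagen gels was 4064. It was 1890 at an adjusted p-value under 0.05 (784 higher, 1106 lower) and 540 with a 2-fold change as well (287 higher, 253 lower), both by construction. Rescaling lowered the genes called lower from 2698 to 1766. With each library left out in turn the total was between 2469 and 4288, the higher genes between 1005 and 1445 and the lower genes between 1464 and 2843. Over all lists other than cell markers, 252 distinct members were called higher and 196 lower. Of these, 67 and 51 also changed 2-fold, and 124 of the lower ones passed 0.05. Leaving libraries out gave 186 to 269 higher and 148 to 200 lower. Of 88 counts of single lists, 13 to 18 moved by over 1.5 times when 1 high-collagen library was left out, and 14 under rescaling. The 43 genes whose IL-4 effect differed between gels became 66 with no filter, 26 with no mean-variance trend, 95 with all 12 libraries in the fit, 7 at 0.05, 24 with a 2-fold difference as well, and 12 to 49 with each library left out, and the cause was not tested. The 2050 genes that differed against TC plates became 792 at 0.05, 380 with a 2-fold difference, and 1361 to 1710 with each library left out.

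With the replicate block 3669 genes were called with IL-4 in high-collagen gels (1279 higher, 2390 lower), 18 for the difference between gels and 1902 against TC plates. The labels do not say whether libraries with the same replicate number belong together, and a correlation over all genes cannot settle this. The correlation of the deviations of same-numbered libraries was 0.001 between untreated and IL-4 libraries of high-collagen gels and lay between -0.124 and 0.04 over the pairs of gel conditions.

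Of 211 named genes called, 174 kept the call under each of up to 19 alternatives other than the stricter thresholds, and 37 lost it at least once. Only Adgre1 changed sign, to -0.045 under quantile normalization (adjusted p = 0.634 by limma). Since TPM hold no depth, the precision of low values could not be given.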
